A study of Eleocharis dulcis with 24 samples.

Results

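A total of 130 features that carry IDs of the form novel1867, outside the numbering of the other features, reached a mean of at least 100 TPM in at least 1 of the 8 groups of corms of *Eleocharis dulcis* (Chinese water chestnut). TPM is a measure of transcript abundance: reads per transcript length, scaled to the same total in each library. These 130 members came from 2560 features with such IDs and 35975 features in all. The other IDs carry the prefix EdulChr. The members were thus chosen on their level in these same 24 libraries, so their levels are given as a description.

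Cultivated corms and wild corms were each collected at initial swelling, middle swelling, late swelling and maturity, with 3 biological replicates per group (24 libraries). No treatment, cultivar, growing site or age is given in the labels, and any of them that differed between the origins cannot be told apart from it. Column totals lay between 999991 and 1000002 TPM, so read depth is unknown and precision rests on the spread of 3 libraries. No 2 libraries held identical values. The p-values below measure the spread among 3 libraries per group and not the variation among cultivated or wild plants at large. IDs are not paired with gene names or sequences in the files used here, so the tissue could not be checked against marker genes and no function is assigned to any ID.

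A corm is an underground storage stem. In water chestnut it forms when the tip of a stolon stops elongating and swells, and it then fills with starch and soluble sugars until the skin darkens at maturity. IDs of this form are, in general, given to loci that a transcript assembler builds from aligned reads where a genome annotation lists no gene. They can be genes that the annotation missed, non-coding RNAs, transcribed repeats or pieces of neighbouring genes. Which of these applies to a given ID is not given in the sources used here.

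Few of the features with such IDs were strong. The 130 members were 5.08% of them, while 3155 EdulChr genes, 9.44% of their number, reached the same limit. The median of the highest group mean was 263 TPM among members and 201 TPM among the EdulChr genes. A total of 50 members stayed under 200 TPM in every group, 22 reached 1000 TPM and 6 reached 10000 TPM. Just inside the limit were novel2120 (101.2 TPM in wild late corms), novel1048 (103 TPM in cultivated initial corms) and novel31 (105 TPM in wild middle corms). Just outside it were novel1424 (99.4 TPM in wild middle corms), novel2234 (99.0 TPM in wild initial corms) and novel1791 (98.4 TPM in cultivated mature corms).

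The 130 members held a share of all TPM that differed between stages and origins. In cultivated corms it was, in stage order from initial to maturity, 10.4 ± 2.70%, 7.72 ± 0.240%, 4.12 ± 0.185% and 16.5 ± 0.566% (SD, n = 3). The wild share was 6.98 ± 0.143%, 12.2 ± 0.262%, 16.6 ± 1.16% and 29.9 ± 0.189% in the same order (SD, n = 3). At maturity most of the share in both origins was 1 feature, novel1867. Without it the members held 10.3 ± 2.71%, 4.06 ± 0.206%, 2.95 ± 0.156% and 3.30 ± 0.0533% in cultivated corms. The wild values without it were 4.43 ± 0.126%, 4.60 ± 0.131%, 4.97 ± 0.148% and 5.28 ± 0.293% (SD, n = 3). Because every library has the same TPM total, what novel1867 takes is what the other features of that library lack.

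**Figure D1:**
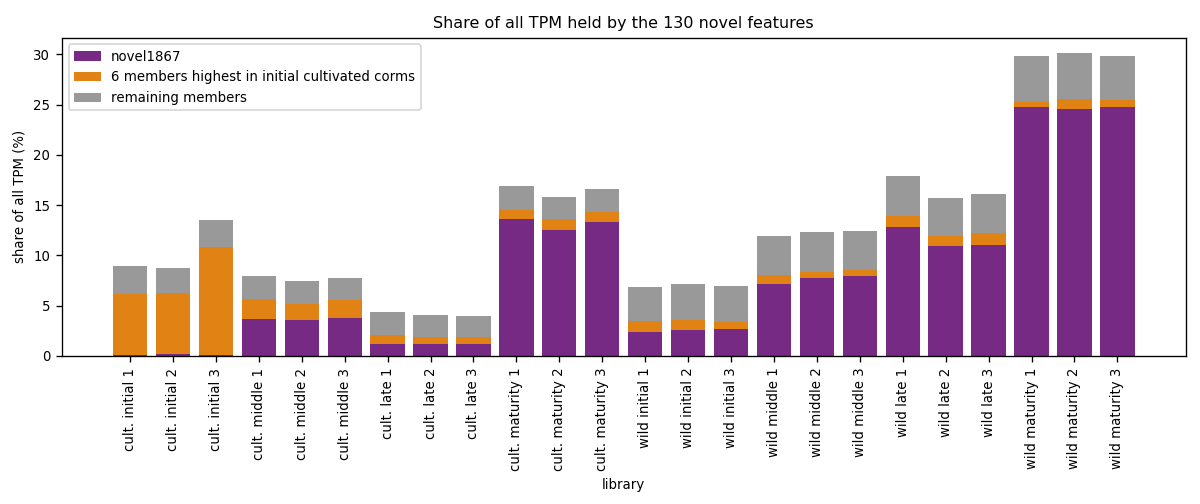
Share of all TPM (y axis, percent, from 0) held by the members in each of the 24 libraries (x axis), cultivated left of wild. Purple is novel1867, orange the 6 members described below that stood over 5000 TPM in cultivated initial corms, grey the remaining members. The purple part grows to 24.7% in wild mature corms, and the third cultivated initial library has a larger orange part than the other 2.

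The highest member was novel1867. Initial cultivated libraries held 1401, 1421 and 1261 TPM of it, middle ones 36697, 35813 and 37356 TPM, late ones 12015, 11402 and 11563 TPM, and mature ones 136519, 125527 and 132854 TPM. Initial wild libraries held 24210, 25837 and 26515 TPM, middle ones 72010, 77372 and 79674 TPM, late ones 128668, 109081 and 110159 TPM, and mature ones 247129, 245288 and 247089 TPM. The origins did not overlap at any stage, wild corms were higher at each, and the drop at the late stage appeared in cultivated corms and not in wild ones.

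The next highest member, novel1789, had much the same course at a lower level. It averaged 157 ± 12.6, 3920 ± 343, 1083 ± 82.8 and 7653 ± 852 TPM from initial to maturity in cultivated corms. The wild averages were 5287 ± 642, 11933 ± 470, 14971 ± 722 and 25220 ± 624 TPM (SD, n = 3). Over the 24 libraries the log2(TPM + 1) values of novel1867 and novel1789 had a Pearson r of 0.97, the highest of novel1867 with any tested feature. The next were EdulChr50G00184750 (r = 0.96), which lay between 12.2 and 83.9 TPM in group means, and EdulChr50G00183490 (r = 0.93), which reached 12480 TPM in cultivated mature corms. These are descriptions over 8 groups of 3 libraries that share stages.

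The 2 members nevertheless did not keep a fixed proportion. The ratio of novel1867 to novel1789 in TPM was 8.66 ± 0.148, 9.40 ± 0.951, 10.8 ± 0.680 and 17.3 ± 1.27 from initial to maturity in cultivated corms. The wild ratios were 4.86 ± 0.372, 6.40 ± 0.212, 7.74 ± 0.364 and 9.78 ± 0.266 (SD, n = 3). At each stage all 3 cultivated ratios lay above all 3 wild ones. Being a ratio within a library, it does not depend on the scaling between libraries.

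**Figure D2:**
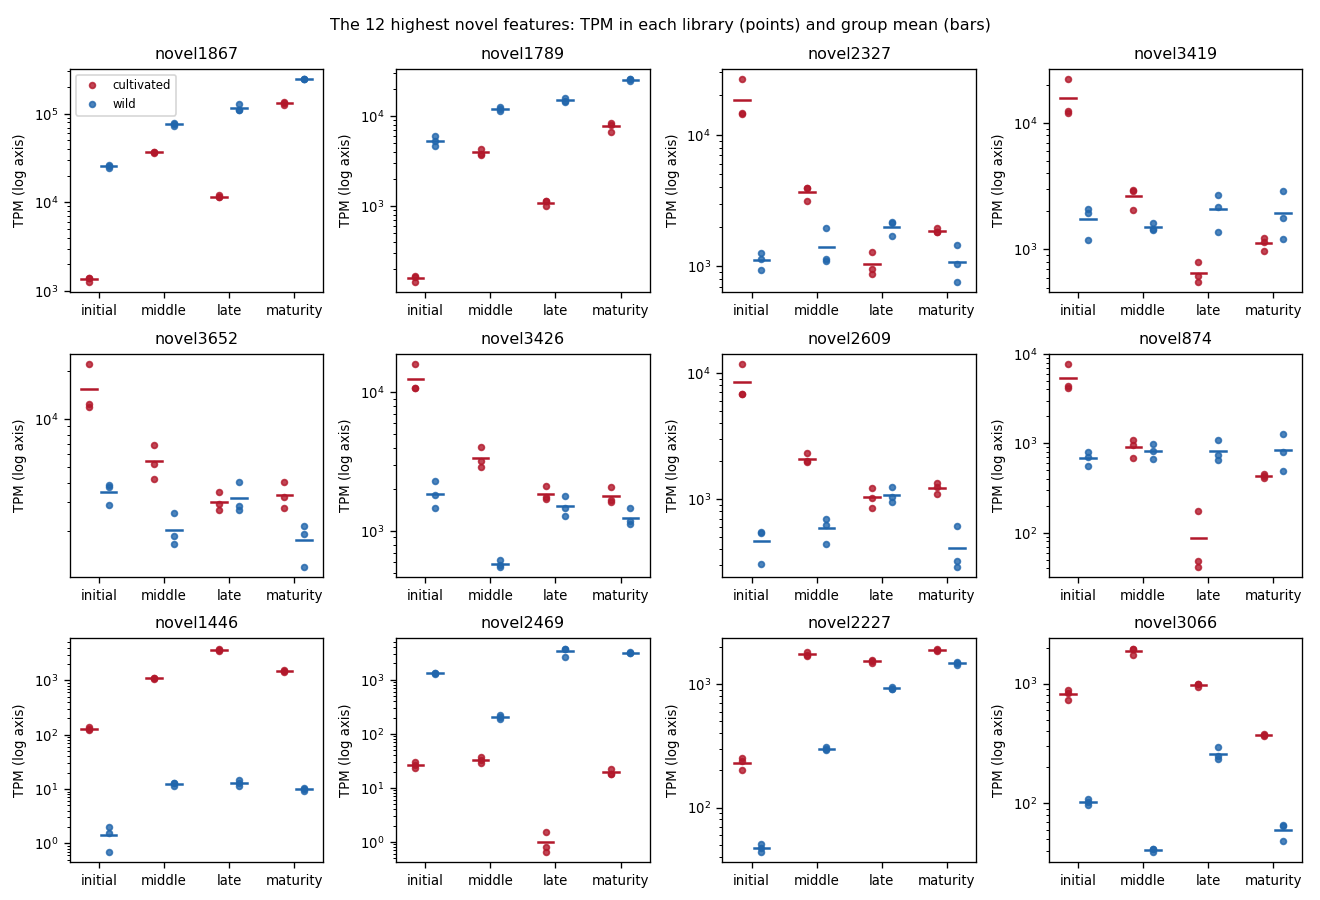
TPM of the 12 highest members in each library (points; log axis, with a scale of its own in each panel) and group means (bars), by stage (x axis), cultivated in red left of wild in blue. The first 2 members are highest at maturity in both origins, with a dip at the cultivated late stage, the next 6 are highest in cultivated initial corms, and novel1446 and novel2469 differ between origins at every stage.

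Members ranked 3 to 8 by their highest mean were all at their highest in cultivated initial corms. They were novel2327 (18470 TPM there), novel3419 (15672 TPM), novel3652 (15523 TPM), novel3426 (12517 TPM), novel2609 (8434 TPM) and novel874 (5401 TPM). The first 5 of them were among the 10 highest features of cultivated initial corms, where novel1867 ranked 53. Together these 6 members held 7.602 ± 2.66% of TPM in cultivated initial corms and 0.938 ± 0.158% in wild initial corms (SD, n = 3). In every other group they held between 0.691 and 1.81%.

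The third cultivated initial library stood apart in these features. For novel2327 it held 26540 TPM, against 14508 and 14363 TPM in the other 2, and the 3 wild initial libraries held 947, 1270 and 1135 TPM. The 6 members stood 1.497 to 1.84 times as high in that library as in the mean of the other 2. Of the 75 members at 100 TPM or more in cultivated initial corms, 10 exceeded 1.5 times (13.3%), against 20 of 1330 EdulChr genes at the same limit (1.504%), and the median ratio was 0.897 among members and 0.895 among EdulChr genes. Without that library the 6 members held 6.06% of TPM in cultivated initial corms and all members together 8.84%.

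The rule used group means, so how replicates deviated from their group mean is a measure it did not use. Deviations of these 6 members on the log2(TPM + 1) scale went together over the 24 libraries. The 15 pairs had Pearson r of 0.32 to 0.83 (median 0.71), while all 8385 pairs of members had a median of 0.10, with 95% of pairs below 0.54. With the third cultivated initial library left out, the 15 pairs ranged from 0.09 to 0.78 (median 0.66). These values share libraries and are given as a description.

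Replicates of members were also more spread than those of EdulChr genes at the same limit. The pooled SD within groups had a median of 0.11 on the log2(TPM + 1) scale among members and 0.08 among EdulChr genes. It exceeded 0.3 in 15 of 130 members (11.5%) and in 87 of 3155 EdulChr genes (2.76%). The widest was novel875 (pooled SD 1.99), with 284, 27.2 and 789 TPM in cultivated initial corms and 118, 202 and 34.3 TPM in wild initial corms. Others were novel2607 (pooled SD 1.23), novel2324 (1.22), novel872 (1.21) and novel2328 (1.06). For these members a group mean can rest on 1 library: novel2324 averaged 184 TPM in wild late corms from 466, 32.7 and 51.8 TPM.

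By the group of the highest mean, 36 members were highest in cultivated initial corms, 8 in middle, 14 in late and 2 in mature cultivated corms, and 26, 20, 13 and 11 in wild corms in the same order. Cultivated initial corms thus held 27.7% of the highest means of members and 12.8% of those of EdulChr genes at the same limit. Of these 36 members, 28 had a mean at least 2-fold lower at the cultivated middle stage than at the initial stage, and 32 at cultivated maturity. That they were lower follows from how they were grouped. EdulChr genes highest there were not counted in the same way. Within these blocks of members, the highest were novel2327, novel3066, novel1446 and novel2227 from initial to maturity in cultivated corms, and novel2329, novel3506, novel2469 and novel1867 in wild corms. Over all members, novel1867 was the highest in every group except cultivated initial corms. A total of 24 members reached 100 TPM in all 8 groups, and 29 in 1 group.

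**Figure D3:**
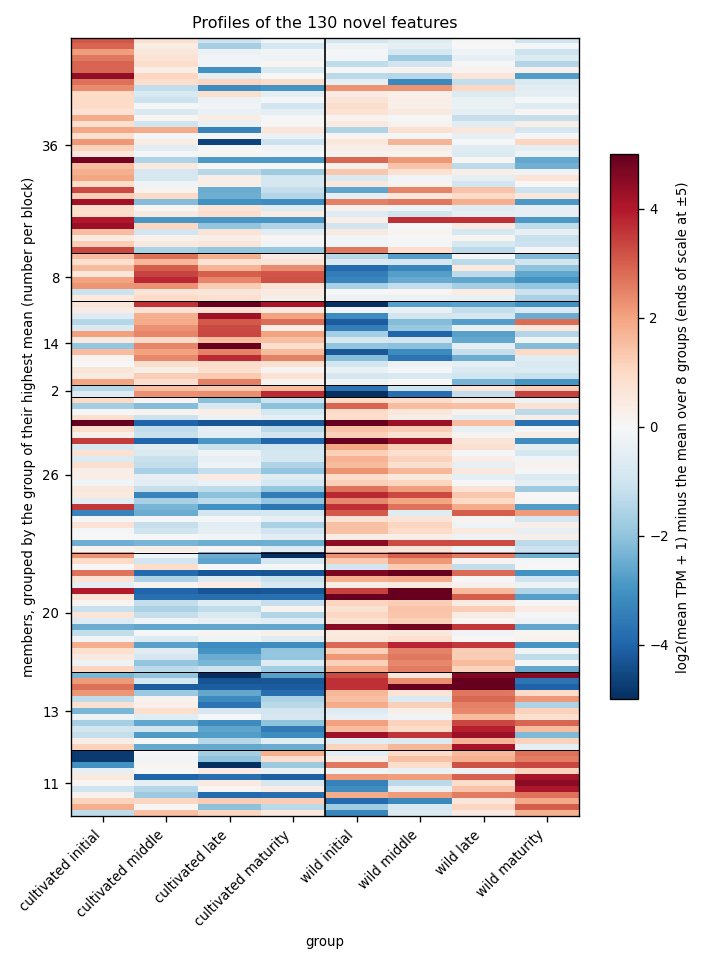
Profiles of the 130 members: log2(mean TPM + 1) of each group (columns) minus the member's mean over the 8 groups, red above and blue below, with rows in blocks by the group of the highest mean (number of members beside each block). Blocks highest in cultivated middle and late corms are blue at much of the wild side, and most members highest in wild late corms are blue in cultivated late corms.

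Members highest late in one origin were often low in the other. That the other origin was lower at that stage follows from the grouping by highest mean. EdulChr genes were not counted in the same way, so these values describe the members and set them apart from no other features. The 14 members highest in cultivated late corms had a median of 211 TPM there and 12.9 TPM in wild late corms, and 10 of them were at least 10-fold higher. The 13 members highest in wild late corms had a median of 2.99 TPM in cultivated late corms and 452 TPM in wild late corms, again with 10 at least 10-fold apart. Members highest at the initial stage were closer: 14 of the 36 highest in cultivated initial corms and 13 of the 26 highest in wild initial corms differed by under 2-fold between the origins at that stage.

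The range over groups was wider among members than among EdulChr genes at the same limit. The difference between the highest and the lowest group mean of log2(TPM + 1) had a median of 4.66 among members (quartiles 2.42 and 6.95) and 3.11 among EdulChr genes (quartiles 2.15 and 4.74). It exceeded 6 in 49 members (37.7%) and in 500 EdulChr genes (15.8%). The widest were novel2469 (10.72) and novel1446 (10.63). The narrowest were novel360 (0.95), which lay between 81.6 ± 1.83 TPM in cultivated mature and 158 ± 15.8 TPM in wild initial corms, and novel1047 (1.19), which lay between 117 ± 2.83 TPM in wild late and 269 ± 21.2 TPM in cultivated initial corms (SD, n = 3). Both sets were selected on their highest group.

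**Figure D4:**
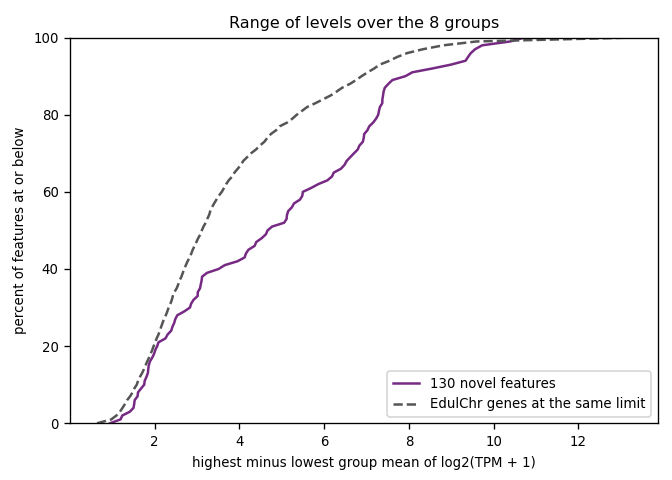
Percent of features (y axis) whose range over the 8 groups, the highest minus the lowest group mean of log2(TPM + 1), is at or below the value on the x axis. The line of the 130 members lies to the right of that of EdulChr genes at the same limit except at the very top, where 1 or more EdulChr genes have a wider range, with medians of 4.66 and 3.11.

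The following tests ask whether members differed between origins at a stage, or between maturity and the initial stage within an origin. To keep them apart from the choice of members, a member was tested in a comparison only if it reached 100 TPM in a group outside that comparison. All 130 members passed the filter on low values, through the groups in which they are high. A feature is called here if limma's Benjamini-Hochberg adjusted p over all 27050 features tested was under 0.05 and the difference was at least 1 on the log2(TPM + 1) scale, that is 2-fold. This scale understates changes of low features. Comparisons that share a group share its libraries. In bulk corm tissue, fewer cells of a type and less RNA per cell cannot be told apart.

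At the initial stage 36 of 117 members were called higher in cultivated corms and 36 lower. Together these 72 were 61.5% of the members tested, where 41.3% of all features (21.1% higher, 20.2% lower) and 56.7% of EdulChr genes at the limit were called. The median log2 difference was 0.02 among members, -0.36 among these EdulChr genes and 0.12 over all features. Higher in cultivated corms was novel1679, with 98.3, 92.8 and 79.0 TPM in cultivated initial and 1.15, 0.42 and 0.25 TPM in wild initial corms (log2 difference 5.86 ± 0.19, SE, limma adjusted p = 9.63e-17). The spread-out novel872 was higher too, at 770, 653 and 1934 TPM in cultivated and 29.8, 3.74 and 24.6 TPM in wild initial corms (5.998 ± 0.89, SE). It was among the members tested only through its cultivated middle mean of 110 TPM, from 15.5, 243 and 70.7 TPM. That mean rests on 1 library, so its p is not given. Lower in cultivated corms were novel3460, at 1.30 ± 0.390 TPM in cultivated and 190 ± 10.1 TPM in wild initial corms (SD, n = 3; -6.39 ± 0.12, SE, limma adjusted p = 8.37e-21), and novel1676. The last was listed at 0 in 2 cultivated initial libraries and at 0.23 TPM in the third, against 134, 138 and 134 TPM in wild ones.

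The 6 members that stood highest in cultivated initial corms were singled out for that level, so their differences from wild initial corms are a description with no test. On the log2(TPM + 1) scale these ran from 2.1 ± 0.26 for novel3652 to 4.18 ± 0.27 for novel2609 (SE), and without the third cultivated initial library from 1.81 to 3.91. Cultivated initial corms were lower in novel1867 (-4.23 ± 0.07, SE, limma adjusted p = 2.66e-21) and in novel1789 (-5.06 ± 0.09, SE, limma adjusted p = 6.19e-21).

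At the middle stage 28 of 124 members were called higher and 58 lower in cultivated corms. These 86 were 69.4% of members tested, where 55.1% of all features (17.2% higher, 37.9% lower) and 69.5% of EdulChr genes at the limit were called, so the share of members was about that of other strong genes. The widest falls were novel109, listed at 0 in all 3 cultivated middle libraries against 583, 552 and 572 TPM in wild ones, and novel2627, at 0.34, 0.31 and 0.17 TPM in cultivated and 669, 698 and 694 TPM in wild middle corms (log2 difference -9.08 ± 0.06, SE, limma adjusted p = 2.74e-28). The widest rise was that of novel2322, at 149, 124 and 157 TPM in cultivated and 0.43, 1.30 and 0.22 TPM in wild middle corms (6.50 ± 0.18, SE, limma adjusted p = 3.35e-18). Of the 8 members with their highest mean in cultivated middle corms, novel3066 was the highest, at 1958, 1960 and 1723 TPM there and at 41.6, 41.9 and 39.5 TPM in wild ones. It was chosen for that level, so no test is given.

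At the late stage 29 of 124 members were called higher and 54 lower in cultivated corms, 66.9% together, where 54.2% of all features and 64.2% of EdulChr genes at the limit were called. Over all features the prevailing direction was the other, with 31.9% called higher and 22.3% lower in cultivated corms. Among EdulChr genes at the limit it was that of the members, with 28.5% called higher and 35.6% lower. The median log2 difference over all features was 0.26 as deposited and -0.20 after median-of-ratios scaling. After median-of-ratios scaling the split of members was 15 higher and 65 lower. Calls among all features or EdulChr genes were not counted after this scaling, here or in the comparisons below. Such splits therefore set the members apart from no other features. The widest difference was that of novel2469, with 0.66, 1.53 and 0.81 TPM in cultivated late and 2659, 3646 and 3775 TPM in wild late corms (-10.72 ± 0.14, SE). Also lower was novel676, listed at 0 in all 3 cultivated late libraries against 613, 685 and 675 TPM in wild ones. Higher was novel1446, at 3862, 3703 and 3555 TPM in cultivated late and 13.1, 11.2 and 14.6 TPM in wild late corms (8.06 ± 0.13, SE). Both novel2469 and novel1446 were singled out for these late levels, so no test is given for either here.

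At maturity 24 of 125 members were called higher and 34 lower in cultivated corms, 46.4% together, where 39.9% of all features (27.7% higher, 12.2% lower) and 53.0% of EdulChr genes at the limit were called. Of these EdulChr genes 27% were called higher and 26% lower. After median-of-ratios scaling the split of members was 16 higher and 57 lower, again with no count of other features beside it. Lower were novel2229, at 0.45, 0 and 0 TPM in cultivated mature and 347, 329 and 347 TPM in wild mature corms, and novel2469, at 17.9, 22.1 and 17.9 TPM in cultivated and 3232, 3099 and 3083 TPM in wild mature corms (-7.28 ± 0.14, SE, limma adjusted p = 8.86e-21). Higher were novel1446 (7.10 ± 0.13, SE, limma adjusted p = 3.55e-21) and novel1825, at 86.5, 92.7 and 96.9 TPM in cultivated and 0.31, 0.14 and 0.49 TPM in wild mature corms (6.15 ± 0.09, SE, limma adjusted p = 9.63e-23). The mature log2 difference of novel1867, given with no test because it was singled out for its wild mature level, was -0.91 ± 0.07 (SE) as deposited and -1.61 after scaling.

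A few members were at least 10-fold apart between origins, on the same side, at every stage. Without overlap of libraries and at least 10-fold on group means at all 4 stages, novel1446, novel2322, novel736 and novel1825 were higher in cultivated corms and novel688, novel131, novel2867 and novel2301 in wild corms. These are 3.08% of members on each side, against 0.887 and 3.01% of EdulChr genes at the same limit. On the wild side the mature stage rests on very low values, with novel688 listed at 0 in cultivated and at 1.00 TPM in wild mature corms, and novel2301 at 0.0533 TPM in cultivated and 0.977 TPM in wild mature corms. Neither was called at maturity, with log2(TPM + 1) differences of -0.99 and -0.91. For novel688 the middle and late cultivated libraries were listed at 0 as well, so no ratio exists there. The ratio of cultivated over wild means for novel1446 was 91.8, 88.7, 287 and 151 from initial to maturity. The ratio of wild over cultivated means for novel131 was 14.3, 16.2, 122 and 34.5 in the same order. No member was listed at 0 in all 12 libraries of an origin.

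A total of 12 members stood under 1 TPM in all 9 cultivated libraries from the middle stage on (9.23% of members, against 4.50% of EdulChr genes at the same limit). Of these, 9 had a mean over 10 TPM in cultivated initial corms, and 8 of the 12 were under 2 TPM in all 3 wild mature libraries as well. An example of the 12 is novel3636, which averaged 131 ± 12.3 TPM in cultivated initial corms and 0.387 ± 0.0737, 0.0633 ± 0.11 and 0 TPM at the later stages. In wild corms it averaged 506 ± 31.8, 749 ± 43.1, 141 ± 13.7 and 1.46 ± 0.581 TPM (SD, n = 3). It is not among the 8, since 1 wild mature library held 2.06 TPM. The member novel1728 was listed at 0 in all 9 of these cultivated libraries after 123.4, 121 and 114 TPM at the initial stage, while wild corms held 8.44 ± 0.338, 93.0 ± 2.50 and 94.3 ± 3.04 TPM at initial, middle and late (SD, n = 3) and 0 to 0.06 TPM at maturity.

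From the initial stage to maturity in cultivated corms, 21 of 120 members were called higher at maturity and 59 lower. These 80 were 66.7% of members tested, where 43.9% of all features (7.94% higher, 36% lower) and 53.6% of EdulChr genes at the limit were called. The members called lower were 49.2% of those tested, against 36.0% of all features and 37.1% of EdulChr genes at the limit. With median-of-ratios scaling 23 members were called higher and 45 lower. The median log2 difference of the members tested was then -0.41 in place of -1.11. The largest rises were those of novel1867 (log2 difference 6.60 ± 0.07, SE) and novel1789 (5.59 ± 0.09, SE, limma adjusted p = 9.33e-22). The largest falls were those of novel639, listed at 0 in all 3 cultivated mature libraries against 739, 726 and 646 TPM in initial ones, and novel2627, at 0, 0.06 and 0.07 TPM in mature and 324, 326 and 291 TPM in initial corms. For the 6 members highest in cultivated initial corms a lower level at maturity follows from how they were singled out, and the values are given with no test. Their log2 differences lay from -2.17 ± 0.26 for novel3652 to -3.76 ± 0.30 for novel3419 (SE), and from -1.88 to -3.47 without the third cultivated initial library.

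In wild corms 18 of 123 members were called higher at maturity than at the initial stage and 53 lower, 57.7% together, where 50.7% of all features (4.29% higher, 46.4% lower) and 57.9% of EdulChr genes at the limit were called. Which direction prevailed changed with median-of-ratios factors, where 35 members were higher and 29 lower. It did not change with novel1867 removed and TPM rescaled, where 24 were higher and 42 lower. Among the members tested, the largest rise was that of novel30, at 1519, 1417 and 1403 TPM in wild mature and 1.53, 0.62 and 0.84 TPM in wild initial corms (9.53 ± 0.11, SE, limma adjusted p = 1.97e-24). The next among those tested was novel2896, at 458 ± 11.7 TPM in mature and 2.73 ± 0.405 TPM in initial wild corms (SD, n = 3; 6.95 ± 0.06, SE, limma adjusted p = 1.83e-25). The largest falls were those of novel639 and of novel2535, which held 1.14, 0.60 and 0.61 TPM in wild mature and 715, 677 and 733 TPM in wild initial corms (-8.65 ± 0.14, SE, limma adjusted p = 6.45e-22).

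Both novel30 and novel2896 were higher in cultivated than in wild corms before maturity. Cultivated corms held 85.4 ± 7.93, 652 ± 40.5, 678 ± 8.02 and 1767 ± 89.6 TPM of novel30 from initial to maturity (SD, n = 3). Its wild averages were 0.997 ± 0.475, 8.53 ± 0.71, 58.2 ± 2.14 and 1446 ± 63.3 TPM. The difference between origins on the log2 scale was 5.46, 6.10 and 3.52 at initial, middle and late (called at each), and 0.29 ± 0.11 (SE) at maturity, which was under 2-fold and turned to -0.42 after scaling. For novel2896 the means were 23.6 ± 0.234, 240 ± 8.69, 558 ± 7.90 and 467 ± 6.21 TPM in cultivated corms. Its wild means were 2.73 ± 0.405, 13.9 ± 1.17, 8.88 ± 0.684 and 458 ± 11.7 TPM (SD, n = 3). Among other members, novel1204 was low in cultivated corms at every stage (6.40 to 17.7 TPM) and reached 304 ± 11.7 TPM in wild mature corms after 24.1 ± 1.19 TPM at the wild late stage (SD, n = 3). From initial to maturity in wild corms novel1204 differed by 7.91 and novel1836 by 7.17 on the log2 scale, more than novel2896, but both reached 100 TPM only in wild mature corms and were not tested.

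The change from initial to maturity was then compared between origins. In this interaction test 26 of 112 members were called with a higher change in cultivated corms and 32 with a lower one, 51.8% together, where 40.7% of all features and 47.6% of EdulChr genes at the limit were called. Over all features 27.8% were called higher and 12.9% lower. The median difference in log2 change was -0.32 among members, 0.37 among the EdulChr genes and 0.34 over all features. After median-of-ratios scaling the members split into 19 higher and 44 lower. The log2 change was larger in cultivated corms, where they started lower, for novel1867 (by 3.32 ± 0.10, SE) and novel1789 (by 3.33 ± 0.13, SE). Both stand among the highest members for their wild mature level, which enters this difference, so no test is given. For the 6 members highest in cultivated initial corms this difference includes the level they were singled out for, so it is given with no test. It lay between -1.13 ± 0.36 for novel3652 and -3.88 ± 0.42 for novel3419 (SE). Without the third cultivated initial library that of novel3652 was -0.84, and those of the other 5 lay between -2.03 and -3.59.

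**Figure D5:**
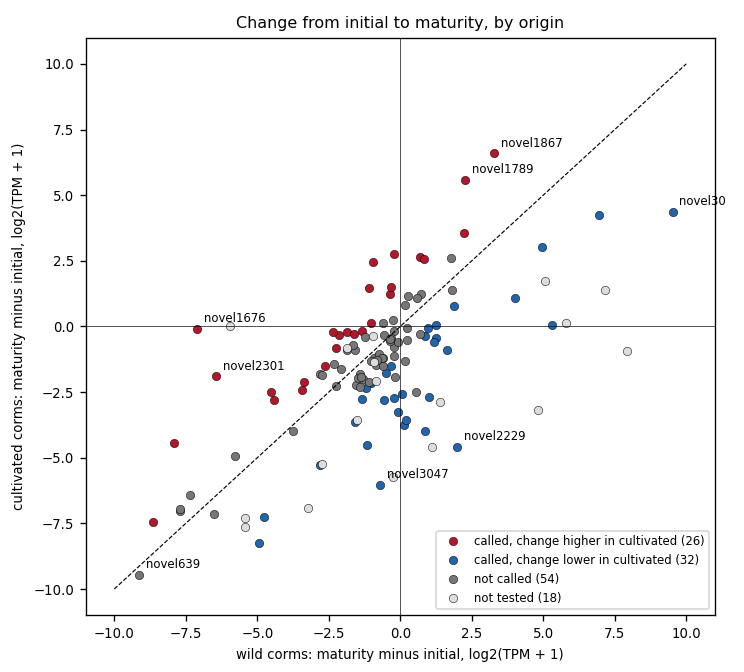
Change from initial to maturity on the log2(TPM + 1) scale in cultivated corms (y axis) and wild corms (x axis) for each of the 130 members, colored by the interaction test, with equal change on the dashed line. Members called with a higher change in cultivated corms (26) lie above that line and those with a lower change (32) below it, 54 tested members were not called, and 18 members were not tested because they reached 100 TPM in no group outside the comparison.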

How the data were processed

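Corm RNA libraries were run on a DNBSEQ-T7 sequencer, as the series design states. The authors deposited 1 table of TPM values (2 decimals, 1 row per feature, 1 column per library). Per the submitters' processing notes, the tools included StringTie 2.1.6, DESeq2 and HISAT2 2.0.4, without their roles. The sources used here give no genome build, annotation, filter or definition of the unnamed IDs. If those features were assembled from these reads, their boundaries and levels depend on that assembly. Reads shared with near-identical copies or overlapping genes cannot be separated in TPM.

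Columns were matched to samples by origin, stage and sample number in the titles. TPM is not a count, so log2(TPM + 1) was fitted with lmFit, contrasts.fit and a trended eBayes of limma 3.58.1 (R 4.3.3) in 1 fit of all 24 libraries with 8 group means. Features with at least 1 TPM in at least 3 libraries entered (27050). Groups of 3 against 3 were not compared by any other test. Fits were tested on simulated data first.

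Named features were, by a fixed rule, the 12 highest members, the 2 largest called rises and falls per comparison without overlap, the highest in each group, neighbours of the limit, extremes of range, and features most like the highest members. Members named for replicate spread, for low later levels and for the mature wild peak were chosen after their values were seen. The members, lists and rules were chosen with earlier results of these data known. Alternatives were a pseudocount of 0.1, no filter, median-of-ratios scaling, a filter on mean TPM (at least 5), removal of novel1867, only the groups compared, a replicate block and each library left out.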

Additional observations from a re-analysis of the deposited data

Results flagged for a closer look

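Of the 58 members whose change from initial to maturity was called different between origins, 4 are given here, the pair with the largest differences in each direction (log2 change, cultivated minus wild). The change of novel2229 differed by -6.57 ± 0.19 (SE, limma adjusted p = 2.52e-17). It held 0.15 ± 0.26 TPM at maturity and 26.4 ± 4.05 TPM at the initial stage in cultivated corms, and 341 ± 10.01 and 85.8 ± 2.72 TPM in wild corms (SD, n = 3). That of novel3047 differed by -5.33 ± 0.09 (SE, limma adjusted p = 9.78e-21), with 5.69 ± 0.261 TPM at maturity and 440 ± 30.0 TPM at the initial stage in cultivated corms, and 182 ± 11.9 and 298 ± 11.6 TPM in wild corms (SD, n = 3).

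For novel2301 the difference was 4.55 ± 0.16 (SE, limma adjusted p = 7.58e-16). Cultivated corms held 0.0533 TPM at maturity and 2.94 TPM at the initial stage, wild corms 0.977 and 171 TPM. The cultivated levels lie near the floor, where log2(TPM + 1) understates a decline, so the size of this difference depends on the pseudocount. For novel1676 it was 6.99 ± 0.12 (SE, limma adjusted p = 5.42e-21), but this feature was listed at 0 in all mature libraries of both origins and at 0 to 0.23 TPM in cultivated initial ones, so the value restates its 135 TPM in wild initial corms and is no comparison of declines. With a pseudocount of 0.1 the 4 differences were -9.21, -5.54, 2.97 and 9.83 in the order given. With each library left out, the differences ranged from -6.74 to -6.46 for novel2229, -5.39 to -5.28 for novel3047, 4.50 to 4.62 for novel2301 and 6.94 to 7.09 for novel1676.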

How the results depend on the processing

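The number of members was 231 with a limit of 50 TPM and 80 with one of 200 TPM, in place of 130. It was 130 after median-of-ratios scaling, 136 without novel1867, and 129 to 131 with any library left out. The share of TPM without novel1867 moved beyond 1 SD in every group but cultivated initial, to 4.06, 2.95 and 3.30% from middle to maturity in cultivated corms and 4.43, 4.60, 4.97 and 5.28% from initial to maturity in wild corms. Counts of called members stayed within 1.5 times of those reported under every alternative run. With each library left out they ranged from 70 to 72, 84 to 87, 82 to 83 and 56 to 61 for cultivated against wild corms from initial to maturity, 78 to 81 and 69 to 71 for maturity against initial in cultivated and wild corms, and 57 to 62 for the interaction.

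Scaling moved the directions more than the counts. Median-of-ratios scaling shifted the median of all features by 0.49 and 0.77 for maturity against initial in cultivated and wild corms. The shifts were -0.19, 0.25, -0.45 and -0.27 for cultivated against wild corms from initial to maturity, and -0.26 for the interaction. Medians of the members tested moved further, from -0.78 to 0.36 for wild maturity against initial. For cultivated against wild corms at maturity they moved from -0.27 to -0.93. Of called members, the part called higher became 18.8% in place of 34.9% at the late stage and 21.9% in place of 41.4% at maturity. It became 54.7% in place of 25.4% for wild maturity against initial, and 30.2% in place of 44.8% for the interaction. Calls among features other than members were not counted after this scaling. The middle-stage difference of novel1867 was -0.71 in place of -1.06, under 2-fold. Of 387 recomputed values for the 28 named differences, 0 reversed. Their adjusted p-values depend on the libraries in the fit. For novel3460 at the initial stage limma gave an adjusted p of 8.07e-09 with only the groups compared, in place of 8.37e-21. Same-numbered libraries did not deviate together (r of deviations between -0.07 and 0.07), and the replicate block gave 72, 87, 83, 57, 80, 71 and 58 called members in the order above, the 28 named differences keeping their values.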

Other observations

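Among the 130 members, 8 pairs had successive ID numbers. Their Pearson r of log2(TPM + 1) over the 24 libraries had a median of 0.60, against 0.15 for all 8385 pairs of members, but ranged from -0.93 to 0.88. The lowest was novel30 with novel31 and the highest novel1003 with novel1004. Whether successive numbers stand for neighbouring loci is not given in the sources used here.

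The closest feature to novel2327, the highest member of cultivated initial corms, was EdulChr2G00011300 (r = 0.99), with 5862 ± 2168 TPM in cultivated initial and 291 ± 27.7 TPM in wild initial corms (SD, n = 3). It was followed by novel3723 (r = 0.96), which averaged 18.9 ± 6.28 TPM in cultivated initial and 0.327 ± 0.154 TPM in wild initial corms (SD, n = 3), and EdulChr2G00009740 (r = 0.96). After novel1867, the closest features to novel1789 were EdulChr50G00184750 (r = 0.96) and EdulChr109G00329650 (r = 0.93). These were picked as the highest among all tested features and carry no test.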
